A study of Mus musculus with 6 samples.

Results

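Imprinted genes are read from the copy of one parent, and the choice is held by DNA methylation laid down in the egg or the sperm. A small class of them sits inside an intron of a larger gene, often as a retrogene without introns of its own, and starts at a CpG island that is methylated on the copy from the mother and unmethylated on the copy from the father. After fertilisation that methylation is kept through the wave of genome-wide loss by KRAB zinc finger proteins such as ZFP57, which bind the methylated motif TGCCGC and recruit TRIM28 and DNMT1. Because reads of both parental copies are counted together, a start methylated on one copy gives a level midway between none and full.

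The 6 genes described here were Nap1l5 (in an intron of Herc3), Zrsr1 (in Commd1), Nnat (in Blcap), Mcts2 (in H13), the noncoding Peg13 (in Trappc9) and Inpp5f, whose imprinted transcripts start inside its own gene. Their CpGs were all those within 2 kb of the annotated gene (for Inpp5f, along the whole gene) with at least 10 reads in each of 3 cell types, the 2 libraries of a cell type summed. This gave 226 CpGs of 1106981 compared in the whole series. Reduced representation bisulfite sequencing (RRBS), which reads MspI fragments and therefore mostly CpG islands, had been done on male mouse cells. C-iPSCs were induced pluripotent stem cells made with small molecules, and 4F-iPSCs were made with retroviral Oct4, Sox2, Klf4 and c-Myc; both came from OG2 mouse embryonic fibroblasts (OG2-MEFs, which carry an Oct4-GFP reporter) and were taken at passages 5 to 10. The mESCs were the E14 line at passages 20 to 30. All cells had been grown with LIF and the 2i inhibitors CHIR99021 and PD0325901, and feeder cells were removed before collection. Each cell type had 2 libraries. The labels do not say that these came from separate cultures or clones. The p-values of the quasi-binomial fit thus measure the spread between libraries, and those of Fisher's exact test on summed reads do not. The OG2-MEFs and the E14 line differ in genetic background and passage as well as in origin.

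Each library held 53694199 to 96534037 reads over CpGs, with a median of 31 to 54 reads per covered CpG. Over all compared CpGs the mean level was 20.5% and 22.2% in the mESCs, 25.9% and 29.8% in the C-iPSCs and 32.8% and 34.1% in the 4F-iPSCs, so the 4F-iPSCs were the most methylated overall and the mESCs the least. The start windows of the markers that could be read, Pou5f1 and Zfp42 for pluripotent cells and Twist2 for fibroblasts, lay between 5.01% and 24.3% in the 6 libraries, the highest being Pou5f1 in replicate 2 of the 4F-iPSCs. Of these 3 windows, Pou5f1 was higher in the 4F-iPSCs than in the C-iPSCs (12.4 points, quasi-binomial adjusted p = 4.75e-05), and no other difference passed. This window of 7 CpGs held 7219 to 8509 reads in each iPSC library against 488 and 527 in the mESCs, and the part of reads from copies of the reporter was not tested. The other 7 markers had fewer than 5 compared CpGs at a start, so methylation here said little about cell identity.

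RRBS covered all 6 genes, though unevenly. Of the 161 CpGs in the sequence of the Zrsr1 window, 60 were compared (37.3%). For Nnat 45 of 171 were compared, for Mcts2 24 of 116, for Nap1l5 19 of 102, for Peg13 18 of 178 and for Inpp5f 60 of 987. Coverage followed the CpG islands, which held 196 of the 226 CpGs. Near the read minimum, a Peg13 CpG at chr15:72811023 entered with 10 reads in both the 4F-iPSCs and the mESCs (72.2% in the C-iPSCs, 90% in the 4F-iPSCs and 80% in the mESCs). A Nnat CpG at chr2:157561589 stayed out with 9 reads in the C-iPSCs (33.3%, 72.7% and 10% in the same order). All positions are on mm10 (GRCm38).

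Stretches of the start windows of 5 of the genes are printed here 5′ to 3′ on the strand of the gene, from the RefSeq GRCm38 genome, with each compared CpG in capitals. Each is the block with the most compared CpGs that holds no UTR. The medians given next are levels of these CpGs. The start windows of Zrsr1, Mcts2 and Peg13 hold further compared CpGs, which the levels of whole windows include. The Nap1l5 stretch lies in the coding sequence, those of Zrsr1 and Mcts2 lie just upstream of the annotated start, that of Inpp5f is intronic, and that of Peg13 is in its noncoding exon.
Nap1l5 chr6:58906629-58906883 (minus strand): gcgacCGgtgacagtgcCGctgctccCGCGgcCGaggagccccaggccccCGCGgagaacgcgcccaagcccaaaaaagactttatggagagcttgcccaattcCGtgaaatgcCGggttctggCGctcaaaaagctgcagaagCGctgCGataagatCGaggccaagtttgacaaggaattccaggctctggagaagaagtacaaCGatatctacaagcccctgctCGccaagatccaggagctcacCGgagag
Zrsr1 chr11:22971897-22972004 (plus strand): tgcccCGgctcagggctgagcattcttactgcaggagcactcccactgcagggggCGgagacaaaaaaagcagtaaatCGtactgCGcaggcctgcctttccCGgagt
Mcts2 chr2:152686805-152687032 (plus strand): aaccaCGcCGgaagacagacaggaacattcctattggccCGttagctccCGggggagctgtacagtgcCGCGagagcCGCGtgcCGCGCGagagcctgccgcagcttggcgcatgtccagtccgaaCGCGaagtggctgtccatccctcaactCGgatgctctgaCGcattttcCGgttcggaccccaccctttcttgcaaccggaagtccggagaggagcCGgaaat
Peg13 chr15:72809695-72809886 (minus strand): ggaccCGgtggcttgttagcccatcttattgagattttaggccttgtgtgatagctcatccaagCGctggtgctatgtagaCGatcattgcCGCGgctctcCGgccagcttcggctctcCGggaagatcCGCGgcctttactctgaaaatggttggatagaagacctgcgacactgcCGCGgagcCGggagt
Inpp5f chr7:128688048-128688347 (plus strand): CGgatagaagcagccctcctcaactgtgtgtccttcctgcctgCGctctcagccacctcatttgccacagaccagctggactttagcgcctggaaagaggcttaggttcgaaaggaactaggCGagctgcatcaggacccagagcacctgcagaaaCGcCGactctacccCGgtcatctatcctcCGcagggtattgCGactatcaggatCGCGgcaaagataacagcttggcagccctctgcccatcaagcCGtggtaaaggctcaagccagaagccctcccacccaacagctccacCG

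In these printed stretches the median level of a CpG in the mESCs, C-iPSCs and 4F-iPSCs was 25.5%, 5.01% and 62.3% for Nap1l5. It was 18.1%, 2.72% and 55.0% for Zrsr1. The Mcts2 stretch stood at 6.19%, 2.61% and 28.4%, and that of Inpp5f at 15.3%, 3.24% and 40.3%. In these 4 the C-iPSCs were the lowest and the 4F-iPSCs the highest. Peg13 had the mESCs on top, with 82.0%, 56.5% and 71.4%.

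The motif TGCCGC was searched on both strands as these letters. It occurred 3 times in the printed Mcts2 stretch, 2 times in that of Peg13, once in those of Nap1l5 and Inpp5f, and not in that of Zrsr1. In the start windows (1 kb either side of the annotated starts) there were 5 matches for Nap1l5, 3 for Mcts2, 6 for Peg13, 6 for Nnat, 6 for Inpp5f and 0 for Zrsr1. Of the 12276 tested start windows with a single start, 2001 bases long like those of Nap1l5, Zrsr1, Mcts2 and Peg13, 56.2% held at least 1 match, and 11.6% of 32851 RefSeq promoters of 300 bases did. The absence of these letters at Zrsr1 says nothing about binding of the factor there. Among the 143 compared CpGs of the start windows, 8 lay in a match.

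The start windows were then compared over the 6 libraries with a quasi-binomial fit, adjusted over all 18812 start windows with at least 5 compared CpGs. In the 4F-iPSCs against the C-iPSCs, the windows of all 6 genes were higher, where 3.33% of all windows were higher and 0.0904% lower. Against the mESCs, 5 of the 6 were higher in the 4F-iPSCs, where 13.9% of all windows were higher and 0.138% lower, and Peg13 did not pass. In the C-iPSCs against the mESCs, 4 of the 6 were lower (Nap1l5, Zrsr1, Nnat and Peg13), where 0.133% of all windows were lower and 4.12% higher. At all but Peg13, both C-iPSC libraries lay below and both 4F-iPSC libraries above both mESC libraries, where 0.718% of all windows had this order. The median difference over the 6 windows was -15.8 points for C-iPSCs minus mESCs, 29.0 points for 4F-iPSCs minus mESCs and 41.7 points for 4F-iPSCs minus C-iPSCs, and over all windows 0.21, 0.74 and 0.63 points. These comparisons share libraries and are not independent of each other.

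**Figure D1:**
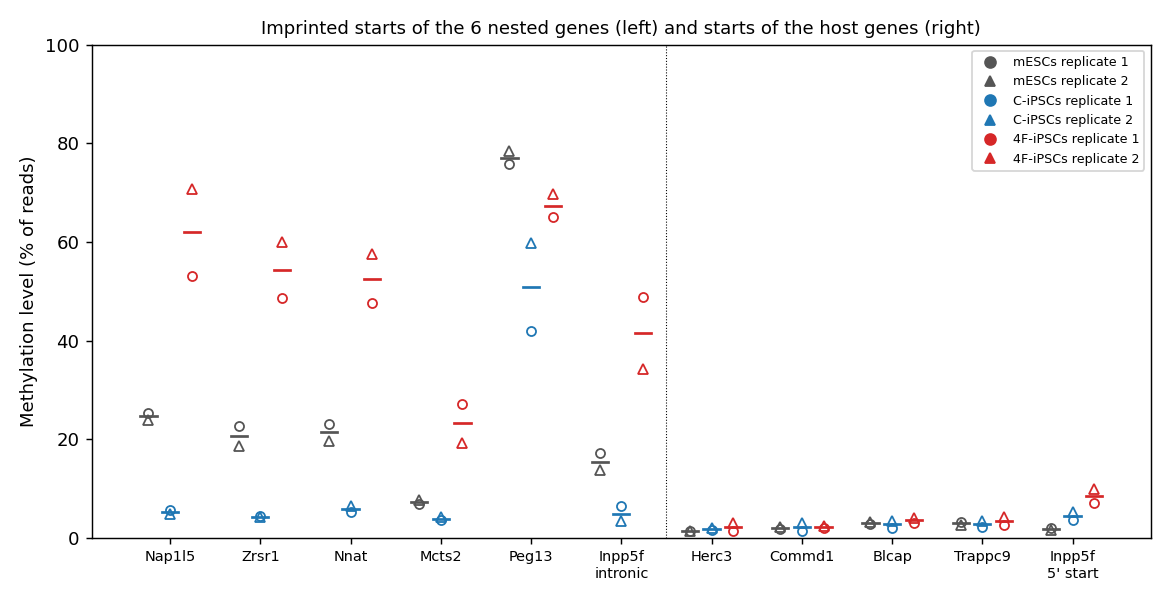
Methylation level (percent of reads, vertical axis) of the start windows of the 6 nested genes and of 5 host starts, in each library (symbols) with the mean of the 2 libraries (bars). Nap1l5, Zrsr1, Nnat, Mcts2 and the intronic Inpp5f start are lowest in the C-iPSCs and highest in the 4F-iPSCs, Peg13 is highest in the mESCs, and the host starts lie at or under 9.90% in every library.

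Nap1l5 (chr6:58905233-58907076, minus strand) is a retrogene related to nucleosome assembly proteins. Its start window held 16 compared CpGs, all in the coding sequence and in 1 island. The level was 25.3% and 23.8% in the mESCs, 5.57% and 4.85% in the C-iPSCs and 53.1% and 70.8% in the 4F-iPSCs. No library of one cell type reached into the range of another, and the 4F-iPSCs spread the most (62.0% ± 12.5, SD, n = 2). The quasi-binomial test gave adjusted p = 0.0101 for the C-iPSCs against the mESCs (-19.4 points), adjusted p = 1.99e-05 for the 4F-iPSCs against the mESCs (36.8 points) and adjusted p = 8.35e-08 between the iPSCs (56.1 points). The first of these did not pass when either C-iPSC library was left out (adjusted p = 0.0946 without replicate 1 and 0.0902 without replicate 2) or without replicate 1 of the mESCs (0.137). Every one of the 16 CpGs was below 30% in the C-iPSCs, and all were between 30% and 80% in the 4F-iPSCs. In the mESCs 13 were below 30%.

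Zrsr1 (chr11:22972005-22976496, plus strand), a retrogene of the splicing factor family of U2AF subunits, was the best covered. Over the 47 CpGs of its start window the level was 22.7% and 18.6% in the mESCs, 4.41% and 4.12% in the C-iPSCs and 48.5% and 60.1% in the 4F-iPSCs. All 3 comparisons passed, with adjusted p = 2.74e-05 (C-iPSCs minus mESCs, -16.3 points), 2.03e-08 (4F-iPSCs higher than mESCs, 33.8 points) and 1.56e-13 (4F-iPSCs higher than C-iPSCs, 50.1 points). The order of the summed levels ran through the 5′ UTR into the coding sequence: at the 13 compared CpGs of the gene beyond the start window, the level was 18.3% and 19.3% in the mESCs, 9.50% and 11.8% in the C-iPSCs and 48.6% and 58.7% in the 4F-iPSCs. None of these 13 CpGs passed the quasi-binomial test between the C-iPSCs and the mESCs (lowest adjusted p = 0.154). At chr11:22973168 the C-iPSCs were the higher (33.3% of 15 reads against 26.3% of 19). The largest strong difference between the 4F-iPSCs and the mESCs at a Zrsr1 CpG was at chr11:22972602 (53.9% of 39 reads against 5% of 20). A CpG at chr11:22972534 stood apart from its neighbours, with 0% of 133 reads in the C-iPSCs, 2.04% of 49 in the 4F-iPSCs and 0% of 58 in the mESCs.

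Nnat (chr2:157560078-157562522, plus strand) encodes neuronatin, a small membrane protein of brain and pancreas. At its 26 start CpGs the level was 23.1% and 19.7% in the mESCs, 5.27% and 6.40% in the C-iPSCs and 47.5% and 57.6% in the 4F-iPSCs. The groups were again separate, by -15.3 points for C-iPSCs minus mESCs (adjusted p = 0.0086), 31.5 points for 4F-iPSCs minus mESCs (adjusted p = 4.35e-05) and 46.8 points between the iPSCs (adjusted p = 2.37e-08). The first did not pass without replicate 1 of the mESCs (adjusted p = 0.229) or without replicate 2 (0.0538). The 13 compared CpGs downstream in the gene body, outside any island, had the same order when summed, with 23.1% and 22.9% in the mESCs, 10.2% and 13.3% in the C-iPSCs and 40.4% and 56.7% in the 4F-iPSCs. Among these, the CpG at chr2:157561742, in coding sequence or 3′ UTR depending on the transcript, had 52.0% of 25 reads in the 4F-iPSCs (69.2% and 33.3% in the 2 libraries), 0% of 13 reads in the C-iPSCs and 0% of 21 reads in the mESCs, so there the mESCs did not lie above the C-iPSCs.

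Mcts2 (chr2:152687035-152687946, plus strand) is a retrogene of the translation factor Mcts1, and its start is known to set where transcripts of the host H13 end. Its summed start level was the lowest of the 6 genes in each library of the mESCs and the 4F-iPSCs, and in replicate 2 of the C-iPSCs those of Inpp5f (3.33%) and Zrsr1 (4.12%) were lower. The level at its 24 start CpGs was 6.78% and 7.74% in the mESCs, 3.54% and 4.25% in the C-iPSCs and 27.2% and 19.2% in the 4F-iPSCs. The 4F-iPSCs were higher than the mESCs by 16.5 points (adjusted p = 7.47e-05) and than the C-iPSCs by 19.9 points (adjusted p = 1.01e-05), which passed in the quasi-binomial test. The C-iPSCs minus mESCs difference was -3.35 points, which did not pass (adjusted p = 0.631) although the libraries did not overlap. No Mcts2 CpG differed by more than the 33.3 points required of a strong CpG in any comparison. In the 4F-iPSCs, 15 of the 24 CpGs were below 30% and the other 9 lay between 30% and 36.4%.

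Inpp5f (chr7:128611328-128696425, plus strand) encodes a phosphoinositide phosphatase. Its intronic start window (chr7:128686546-128689489) holds the starts of the shorter, imprinted transcripts. Its 12 compared CpGs gave 17.1% and 13.8% in the mESCs, 6.36% and 3.33% in the C-iPSCs and 48.9% and 34.3% in the 4F-iPSCs. The 4F-iPSCs were higher than the C-iPSCs by 36.5 points (adjusted p = 0.000732) and than the mESCs by 26.4 points (adjusted p = 0.00511). The C-iPSCs minus mESCs difference of -10.1 points did not pass (adjusted p = 0.426). This window had the fewest reads of the 6 (210 to 472 per library), and its 4F-iPSCs against mESCs call did not pass without replicate 1 of the 4F-iPSCs (18.8 points, adjusted p = 0.296) or without replicate 1 or 2 of the mESCs (adjusted p = 0.0544 and 0.105). It also did not pass where each of the 6 libraries had to hold 10 reads at a CpG (22.7 points, adjusted p = 0.0583). The call between the iPSCs did not pass without replicate 1 of the C-iPSCs (adjusted p = 0.0617).

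Peg13 (chr15:72805600-72810324, minus strand) is a brain-expressed noncoding RNA whose methylated start also binds CTCF on the unmethylated copy. It had the opposite order at the top. Its 18 start CpGs gave 75.9% and 78.3% in the mESCs, 41.9% and 59.9% in the C-iPSCs and 65.0% and 69.6% in the 4F-iPSCs. The C-iPSCs were lower than the mESCs (-25.4 points, adjusted p = 0.000952) and the 4F-iPSCs higher than the C-iPSCs (16.2 points, adjusted p = 0.026). The 4F-iPSCs minus mESCs difference was -9.22 points (adjusted p = 0.177), and it passed in a fit of the 4 libraries of that comparison alone (adjusted p = 0.017), without either C-iPSC library (0.0182 and 0.0169) and with the replicate number as a block (0.0075). The C-iPSC libraries lay further apart here than at any of the other 5 starts (50.9% ± 12.7, SD, n = 2), and without replicate 1 of the C-iPSCs the difference between the iPSCs was 7.54 points (adjusted p = 0.537). It also did not pass without replicate 2 of the 4F-iPSCs (13.7 points, adjusted p = 0.306). The C-iPSCs minus mESCs difference was -16.9 points without replicate 1 of the C-iPSCs and -34.8 points without replicate 2 (adjusted p = 0.00476 and 0.000551). With windows of 0.5 kb on either side neither call passed (-27.5 points, adjusted p = 0.115, and 12.8 points, adjusted p = 0.988). The 4F-iPSCs minus mESCs difference was then -14.7 points (adjusted p = 0.523). In the mESCs 11 of the 18 CpGs were at or above 80%. The lowest CpG of the exon in the mESCs and the C-iPSCs was chr15:72809821, with 57.3% in the mESCs, 22.8% in the C-iPSCs and 58.0% in the 4F-iPSCs.

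The libraries of the 4F-iPSCs differed from each other in a gene-specific way. Replicate 2 was the higher at Nap1l5 (all 16 start CpGs), Zrsr1 (39 of 47), Nnat (22 of 26) and Peg13 (14 of 18), and the lower at Inpp5f (11 of 12) and Mcts2 (16 of 24). Neighbouring CpGs of a gene can lie on the same reads, so these are not counts of independent CpGs. The median absolute difference between the 2 libraries at a start CpG was 11.1 points in the 4F-iPSCs, 5.26 points in the mESCs and 2.67 points in the C-iPSCs. Peg13 had another order, with 5.9, 7.17 and 16.8 points. Every other start had the first order, and there the C-iPSCs lay near the floor, at or under 6.40% in both libraries. With reads summed over CpGs, 95% Wilson intervals were at most 9.3 points wide for the level of a start window or a whole gene in 1 library. They do not cover the spread between libraries. They are too narrow even for counting error, because a read over several CpGs counts at each of them. The PCR copies of a fragment also carry no molecular identifier and are counted as separate reads.

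**Figure D2:**
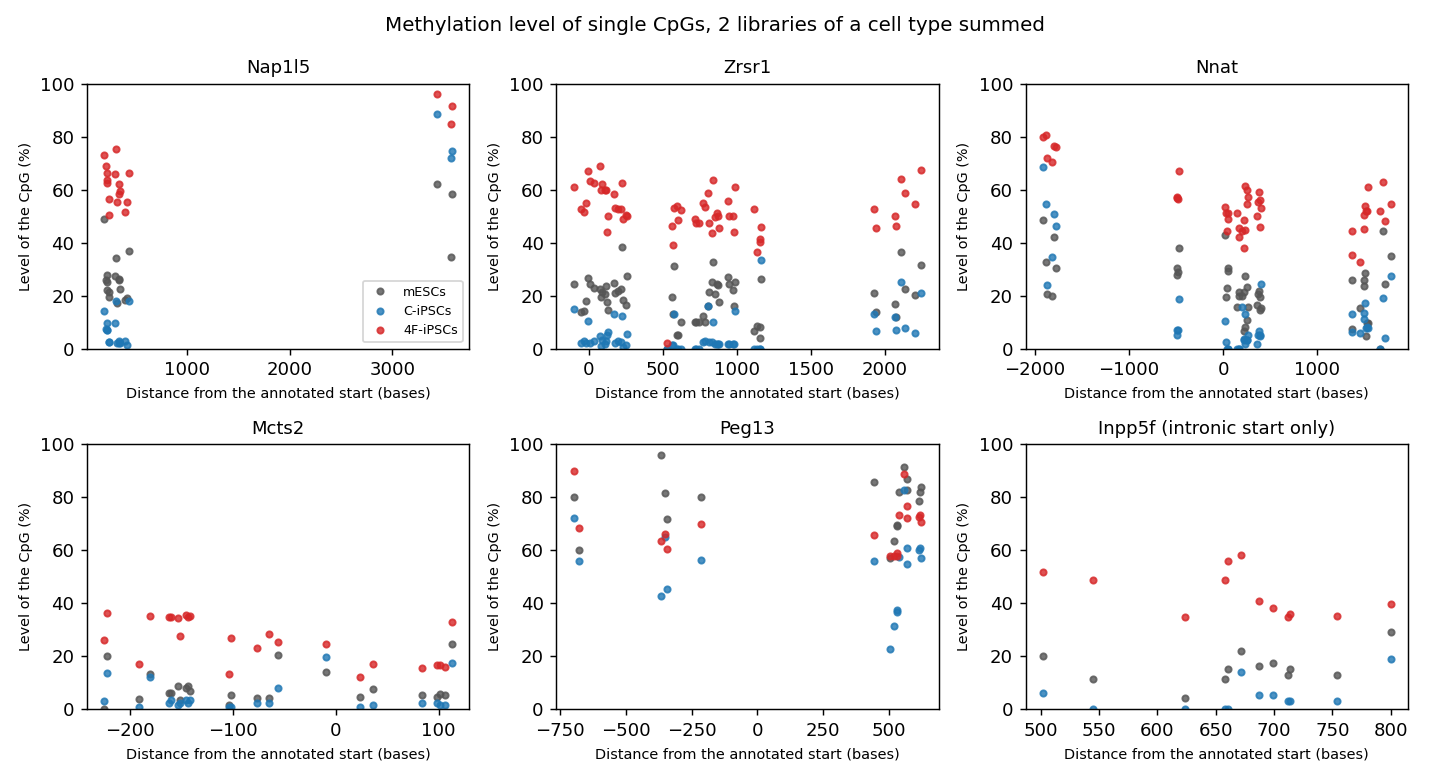
Methylation level of each compared CpG, for Inpp5f those of the intronic start window only (percent, vertical axis) against its distance from the annotated start (bases, horizontal axis, positive along transcription), with the 2 libraries of a cell type summed. At Nap1l5, Zrsr1, Nnat and the intronic Inpp5f start the 4F-iPSCs (red) run near the middle of the scale with the C-iPSCs (blue) near the floor and the mESCs (grey) between them at most CpGs of the start windows, and Peg13 has the mESCs on top at most CpGs. The Zrsr1 CpG at 529 bases is near 0% in all 3, and of the CpGs plotted the C-iPSCs are above the mESCs at 3 of Nap1l5, 2 of Zrsr1, 8 of Nnat, 2 of Mcts2 and none of Peg13 or the intronic Inpp5f start.

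A CpG was called strong where the summed levels of 2 cell types differed by more than 33.3 points and Fisher's exact test (two-sided, summed reads) gave an unadjusted p under 0.05. Between the iPSCs, 117 of the 226 CpGs (51.8%) were strong and higher in the 4F-iPSCs, against 1.35% of all compared CpGs, and none was lower, by either this test or the quasi-binomial test (0.0285% of all were). These were 58 of 60 at Zrsr1, 35 of 45 at Nnat, 16 of 19 at Nap1l5, 7 of 60 at Inpp5f, 1 of 18 at Peg13 and 0 of 24 at Mcts2. All 7 of Inpp5f were in the intronic start window. The largest difference was 64.2 points at Zrsr1 (chr11:22972082, 5′ UTR), with 68.9% of 164 reads in the 4F-iPSCs and 4.67% of 107 in the C-iPSCs. At Nap1l5 it was 61.3 points (chr6:58906865, coding), at Nnat 56.6 points (chr2:157560333, intron), at Inpp5f 56.0 points (chr7:128688207, intron) and at Peg13 35.2 points (chr15:72809821).

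With the quasi-binomial adjusted p in place of Fisher's test, 100 CpGs rather than 117 were strong and higher between the iPSCs. Against the mESCs, 61 rather than 71 were higher in the 4F-iPSCs, and 2 rather than 3 were lower in the C-iPSCs. The shares of all compared CpGs given for strong CpGs are those of Fisher's test, so they are no background for these counts.

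Against the mESCs, 71 of the 226 CpGs (31.4%) were strong and higher in the 4F-iPSCs, where 14.3% of all compared CpGs were, and none was lower by either test (0.0333% of all were). Zrsr1 had 32 of them, Nnat 20, Nap1l5 14, Inpp5f 5, and Mcts2 and Peg13 had 0. Without replicate 2 of the 4F-iPSCs there were 47. In the C-iPSCs against the mESCs, 1 CpG was strong and higher (2.9% of all compared CpGs were) and 3 were lower (0.0374% of all were). The higher one was downstream of Nap1l5 (chr6:58903510, 72.1% of 147 reads against 34.7% of 121). The lower ones were 2 at Peg13, the larger at chr15:72810690 (42.9% of 84 reads against 96.0% of 25, -53.1 points), and 1 at Nap1l5 on 21 reads of the C-iPSCs (chr6:58906877), which did not pass the quasi-binomial test (adjusted p = 0.397). The count of lower CpGs was 14 without replicate 2 of the C-iPSCs, 1 without replicate 1 and 5 without replicate 1 of the mESCs. It was 39 when a difference above 20 points was enough. Over all 226 CpGs, 168 were lower in the C-iPSCs than in the mESCs and 50 higher, where of all compared CpGs 254181 were lower and 666780 higher.

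Strong CpGs of 1 direction formed runs (at least 3, neighbours within 300 bases). Between the iPSCs there were 8 runs, all higher in the 4F-iPSCs. The longest, at Zrsr1 from chr11:22972565 to chr11:22973161, held 28 strong CpGs of 28 compared, with a mean level of 49.5% in the 4F-iPSCs, 2.85% in the C-iPSCs and 16.5% in the mESCs. A further 22 of 22 lay from chr11:22971902 to chr11:22972264 around the start (56.6%, 4.66% and 21.6%), and 8 of 8 in the coding sequence from chr11:22973934 to chr11:22974252 (55.0%, 12.4% and 21.9%). Nap1l5 had 16 of 16 from chr6:58906634 to chr6:58906877 (62.0%, 6.88% and 26.1%). Nnat had 3 runs, the main one holding 20 of 21 from chr2:157560098 to chr2:157560469 (50.6%, 4.08% and 20.4%), and Inpp5f had 7 of 7 from chr7:128688048 to chr7:128688233 (48.6%, 3.67% and 14.5%). Against the mESCs the 4F-iPSCs had 8 runs as well, at Zrsr1 (3), Nnat (3), Nap1l5 and Inpp5f.

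At CpGs just outside 3 of the genes and outside the islands the level of the C-iPSCs lay above that of the mESCs. This grouping was made after the values were seen, so the summed flanks were not tested. Downstream of Nap1l5, 3 CpGs gave 43.4% and 54.9% in the mESCs, 74.6% and 80.6% in the C-iPSCs and 91.1% and 88.0% in the 4F-iPSCs. Upstream of Nnat, 6 CpGs from chr2:157558163 to chr2:157558303 gave 29.7% and 33.3%, 37.9% and 52.0%, and 67.7% and 85.1% in the same order. Upstream of Inpp5f, 2 CpGs gave 37.6% and 49.5%, 54.3% and 69.0%, and 70.9% and 73.8%. At these flanks the C-iPSCs were the higher of the pair with the mESCs, by 29.4, 13.4 and 17.9 points, while at the imprinted starts of the same genes they were the lower. Of these 11 CpGs, 1 passed the quasi-binomial test between the C-iPSCs and the mESCs (chr6:58903510, downstream of Nap1l5, 37.4 points, adjusted p = 0.00585), and the other 10 did not (adjusted p = 0.121 to 1). The CpG that passed was also strong and higher, as were 2.9% of all compared CpGs. Of all compared CpGs, 666780 were higher in the C-iPSCs than in the mESCs and 254181 lower. Upstream of Peg13, 2 CpGs overlapped between the C-iPSCs (66.7% and 50%) and the mESCs (50% and 73.7%).

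**Figure D3:**
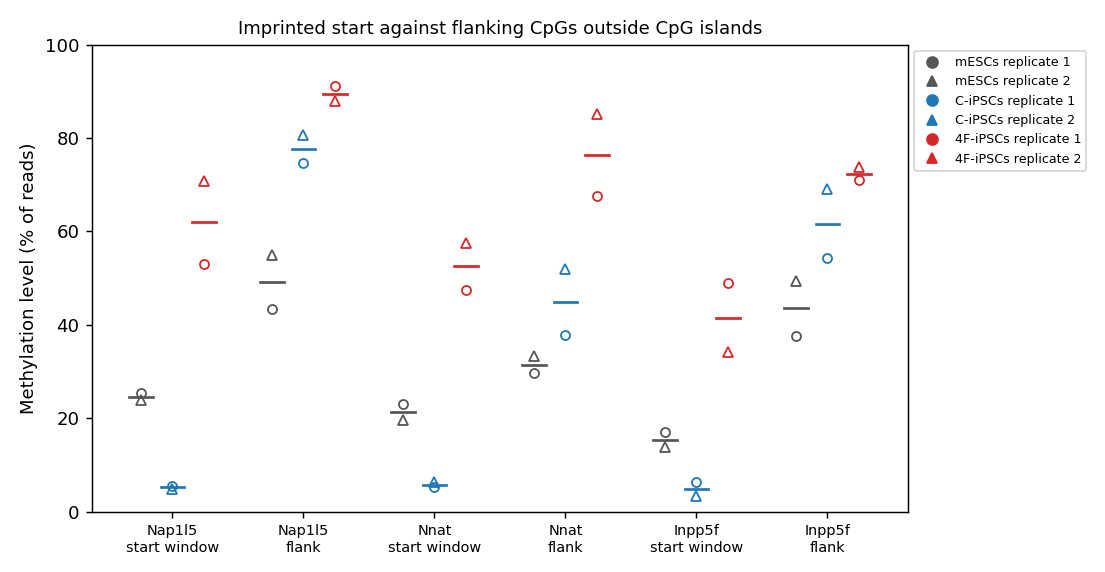
Methylation level (percent of reads, vertical axis) of the imprinted start windows of Nap1l5, Nnat and Inpp5f and of their flanking CpGs outside the gene and outside CpG islands, in each library (symbols) with the mean of the 2 libraries (bars). The C-iPSCs are under the mESCs at the start windows and above them at the flanks, and the 4F-iPSCs have the highest mean in all 6 sets.

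The starts of the host genes were low, and whether they are imprinted was not tested. Those of Herc3, Commd1, Blcap and Trappc9 lay between 1.33% and 4.21% in every library. None of the 4 passed the quasi-binomial test in any comparison, and none had an unadjusted p under 0.05. Fisher's exact test on summed reads called Herc3 in the 4F-iPSCs against the mESCs (0.75 points, adjusted p = 0.0303). In that comparison it called 9882 of all 18812 windows. H13 had fewer than 5 compared CpGs at its start. The 5′ start of Inpp5f, with 45 compared CpGs, gave 1.92% and 1.56% in the mESCs, 3.57% and 5.29% in the C-iPSCs and 7.14% and 9.90% in the 4F-iPSCs. It was higher in the 4F-iPSCs than in the mESCs (6.75 points, adjusted p = 0.000379), and the other 2 comparisons did not pass (adjusted p = 0.312 and 0.163). Of the 60 compared CpGs of Inpp5f, 48 lay outside the intronic window. Over all 60 the C-iPSCs (8.62% and 14.7%) lay above the mESCs (5.33% and 7.64%), the reverse of the order at the imprinted start. The 2 CpGs upstream of the gene and outside islands stood at 63.1% in the C-iPSCs and 45.2% in the mESCs. In the gene body outside the intronic window, 46 CpGs gave 5.44% and 1.97%. Over the 57 island CpGs (4.51% and 3.87%) the libraries of these cell types overlapped.

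Of 10 other imprinted genes known for a region methylated in the egg (Peg3, Peg10, Mest, Snrpn, Plagl1, Grb10, Kcnq1ot1, Airn, Nespas and Impact), 9 had a start window with at least 5 compared CpGs. Whether each window holds that region was not tested. In the C-iPSCs against the mESCs 6 were lower, in the 4F-iPSCs against the mESCs 6 were higher, and between the iPSCs 7 were higher in the 4F-iPSCs. None went the other way by the quasi-binomial test. Their median differences were -24.9, 19.5 and 45.0 points. The windows of Grb10 and Nespas, which lay at or under 6.50% in every library, passed in no comparison. The median level of the 9 windows was 31.1% and 30.2% in the mESCs, where that of the 6 nested starts was 22.9% and 19.1%. The factors that keep imprints (Zfp57, Zfp445, Trim28, Dnmt1 and Uhrf1) had start windows at or under 3.65% in every library. None passed the quasi-binomial test or had an unadjusted p under 0.05, and Dppa3 had too few CpGs. Fisher's exact test on summed reads called 2 of the 5 (Uhrf1 and Zfp445) in each comparison with the 4F-iPSCs. Of all 18812 windows, it called 9882 against the mESCs and 8706 against the C-iPSCs. These are levels of methylation, and expression was not analysed here.

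By root mean square difference over the 6 libraries, the starts of Zrsr1 and Nnat were the closest pair of the 6 genes (1.55 points), and Nap1l5 was 5.38 points from Zrsr1 and 6.21 points from Nnat. Among 15406 start windows with at least 10 compared CpGs that overlapped none of the 6 genes' start windows, the start most like Nap1l5 was that of Peg10 and Sgce, an imprinted pair whose overlapping windows hold the same 11 compared CpGs (6.37 points for both). For Nnat and for Zrsr1 the closest of these was Gm23134 (4.69 and 5.89 points), a window over the 3′ part of the Nnat gene that shares its downstream CpGs, followed by Sgce (7.01 and 6.85 points). Mcts2 was closest to Gm23935 (3.26 points) and Nefm (3.41 points), whose levels were 2.22% to 5.47% in the C-iPSCs and mESCs and 17.3% to 26.0% in the 4F-iPSCs. Inpp5f was closest to AI429214 (7.45 points) and Mif-ps3 (9.25 points). For Peg13 none of these windows came closer than 12.3 points (Pcdha8), and the next was Gm28669 (12.8 points).

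CpGs within CCGG, the site MspI cuts, read higher than their neighbours. In the 6 start windows 34 of 143 compared CpGs lay in CCGG. In all 36 pairs of gene and library the level of these was above that of the other CpGs of the window, by 2.47 to 21.2 points. At Mcts2 in the C-iPSCs it was 12.1% and 18.0% in CCGG against 2.08% and 1.85% elsewhere. The same held over all compared CpGs, for example 47.4% against 18.3% in replicate 1 of the C-iPSCs. The part of the cut site in the levels was not tested. Without these CpGs the counts of starts that differed were 4, 5 and 5 (C-iPSCs against mESCs, 4F-iPSCs against mESCs, 4F-iPSCs against C-iPSCs), the lost one being Peg13 between the iPSCs (18.0 points, adjusted p = 0.0615).

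**Figure D4:**
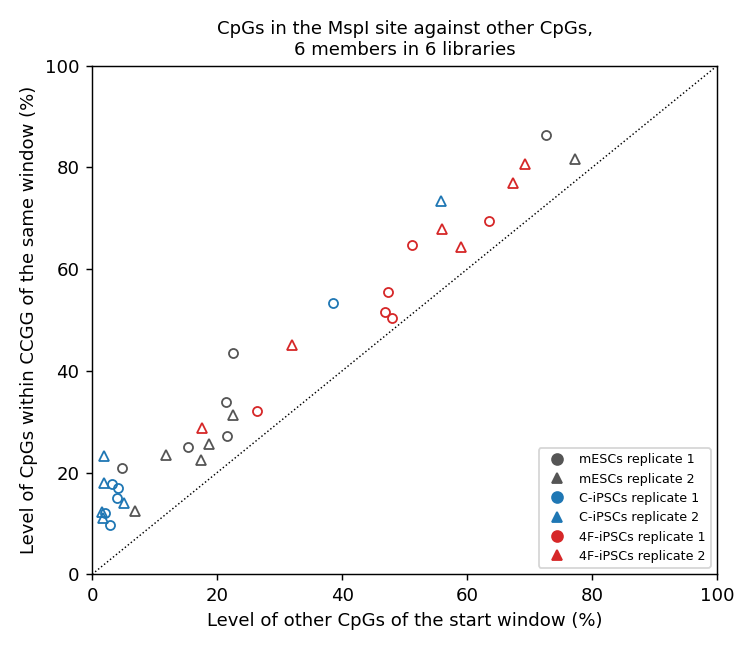
Level of the CpGs within CCGG (percent, vertical axis) against the level of the other compared CpGs of the same start window (percent, horizontal axis), 1 point for each of the 6 genes in each of the 6 libraries, with the line of equality dotted. All 36 points lie above the line, by 2.47 to 21.2 points.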

How the data were processed

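RRBS covered 6 libraries, 2 per cell type. The authors aligned paired reads to mm10 with BSMAP 2.90, kept unique pairs and counted reads per CpG with MOABS. The deposited columns used are counts of reads and of methylated reads per CpG. The deposited ratio, a fraction, matched methylated reads over reads at every CpG. No duplicates were removed by molecular identifiers, and the libraries' depths are in the report. The genes, lists and tests were chosen with earlier results of these data known.

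A level is methylated reads over reads, summed over CpGs. Genes came from GENCODE M21 and sequence from RefSeq GRCm38; that of Nnat is not reported here. A start window is 1 kb either side of annotated starts joined within 1 kb. Strong CpGs were called with Fisher's exact test (scipy 1.17.1), as in the study's methods. Start windows were compared with a quasi-binomial fit whose dispersion was moderated with limma 3.58.1 (R 4.3.3), adjusted by Benjamini-Hochberg, and both tests were checked on simulated data. CpG islands were stretches of at least 200 bases with at least 50% G and C and an observed over expected CpG ratio of 0.6. Gene levels were compared by exact permutation over libraries. Named were the 6 genes, their hosts, for each gene and comparison the strong CpG with the largest difference, runs of strong CpGs, and the 2 most alike start windows overlapping none of the 6; the CpGs at chr11:22972534, chr2:157561742 and the flanks were picked after their values were seen. Alternatives were other read minima, distances, differences, tests, window sizes, a replicate block and each library left out. Others were chosen after seeing the data. These were no CpGs in CCGG, 10 reads in each of the 6 libraries, and the block with crossed replicate numbers (4F-iPSCs against mESCs).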

Additional observations from a re-analysis of the deposited data

Results flagged for a closer look

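At 5 of the 6 imprinted starts the levels of the iPSCs lay on opposite sides of the mESCs. Both C-iPSC libraries lay below and both 4F-iPSC libraries above both mESC libraries, an order that 0.718% of all 18812 start windows had. Of the other imprinted genes listed, Airn, Peg10, Mest, Peg3, Plagl1 and Snrpn had this order, and Kcnq1ot1, Grb10 and Nespas did not. The 4F-iPSCs minus C-iPSCs difference was 56.113 points at Nap1l5, 50.114 points at Zrsr1, 46.815 points at Nnat, 36.549 points at Inpp5f and 19.865 points at Mcts2. The difference between the iPSCs passed the quasi-binomial test at each. The decrease in the C-iPSCs passed at Nap1l5, Zrsr1 and Nnat and did not pass at Inpp5f and Mcts2.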

How the results depend on the processing

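Of 234 values of single imprinted starts under the alternatives, 212 kept their direction and their side of the threshold, 15 no longer passed, 7 passed anew and 0 changed direction. With a difference above 0.2 the strong CpGs were 5 higher and 39 lower (C-iPSCs against mESCs) and 136 higher and 1 lower (4F-iPSCs against mESCs). With a difference above 0.5 they were 0 and 1 in the first comparison, 5 higher in the second and 47 higher in 4F-iPSCs against C-iPSCs. Inside the genes alone, 0 were higher in the C-iPSCs against mESCs, and with 10 reads in each of the 6 libraries 1 was lower. With 1 library left out, the counts ran from 0 to 2 higher and 1 to 14 lower in the C-iPSCs against mESCs, from 47 to 83 higher and 0 to 1 lower in the 4F-iPSCs against mESCs, and from 99 to 116 higher in the 4F-iPSCs against C-iPSCs. The starts that differed were 2 to 4, 4 to 6 and 4 to 6 in these comparisons, where a cell type with 1 library left was assumed to vary like the others. Levels of whole genes, with 2 against 2 libraries, cannot give an exact permutation p below 0.33 (two-sided) under any alternative.

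Same-numbered libraries deviated with a correlation of 0.118 (C-iPSCs and 4F-iPSCs), 0.041 (C-iPSCs and mESCs) and -0.226 (4F-iPSCs and mESCs). What libraries of the same or of opposite numbers share was not tested. With the replicate block the strong CpGs were 1 and 3, 71 and 0, and 117 and 0, and the starts 4, 6 and 6. Crossing the numbers in the 4F-iPSCs against mESCs gave 71 and 0. The block called 1269, 2992 and 1222 of 18812 start windows of the genome, where the fit without it called 800, 2644 and 643. With Fisher's exact test on summed reads, which takes libraries as 1 pool, 3890, 9882 and 8706 windows and all 6 nested starts passed in each comparison, and with windows of 0.5 kb 389, 1604 and 353 of 17087 passed. Without CpGs in CCGG 298, 1319 and 343 of 16592 passed. Without replicate 1 of the mESCs 89 windows passed in the C-iPSCs against mESCs, and without replicate 1 of the C-iPSCs 193 passed between the iPSCs.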
